A study of Caenorhabditis elegans with 8 samples.

Results

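The nuclear genome of Caenorhabditis elegans encodes the proteins of the mitochondrial ribosome, and 71 of these genes had a row among the 20505 coding sequences (CDS) of the ribosome profiling table. They were taken as every CDS whose gene symbol begins with mrpl or mrps followed by a number, together with dap-3. The 41 mrpl genes name proteins of the large subunit, and the 29 mrps genes with dap-3 make up 30 proteins assigned here to the small subunit. The annotation lists 72 such symbols, and mrpl-42 was not analysed here. The choice rests on gene names, so the homologs of mrps-30 and mrps-18A are counted with the small subunit, although in mammals they sit in the large subunit.

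The mitochondrial ribosome translates the few proteins that mitochondrial DNA encodes, all of them core subunits of the respiratory chain and of the ATP synthase. Its own proteins are translated by cytosolic ribosomes and imported, so the reads described here come from cytosolic translation of the mrpl and mrps mRNAs. In C. elegans, knockdown of mrps-5 during development slows respiration, activates the mitochondrial stress response and lengthens life.

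All libraries came from whole worms of the wild-type strain N2, hatched as L1 larvae and grown on plates with NA22 bacteria. The 4 young-adult libraries carry a single specimen number. They cross a sucrose gradient with a MicroSpin gel filtration column for the isolation of monosomes, and the submitters' own library preparation (in-house) with the ARTseq kit (kit), with 1 library per combination. The 4 larval stage 4 (L4) libraries differ in the gel slice from which the protected fragments were cut, 25 to 30, 28 to 30, 28 to 35 or 26 to 34 nt, and the labels name no isolation or preparation for each of them. No label ties an L4 column of the table to a slice, so these libraries are called L4 library 5, 6, 7 and 8 after their columns. Values are RPKM, reads scaled to the length of the feature and to the reads of the library, and they do not separate the amount of an mRNA from the ribosomes it carries.

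Library totals recovered from the table were 18018744 to 38132794 reads in young adults, 26078844 and 21814060 in L4 libraries 5 and 6, and only 4999364 and 3684924 in L4 libraries 7 and 8. L4 library 8 went against its label. Its 5 yolk protein CDS took 7.27% of its reads, against 7.27% to 7.53% in young adults and 0.017% to 0.019% in L4 libraries 5 to 7. Its 3 L4 cuticle collagens summed to 34.4 RPKM, against 13.5 to 30.1 in young adults and 6881 to 7647 in L4 libraries 5 to 7. Counts of stage differences are therefore given with and without this library, and for a named gene that is called only without it, the value with it is given too.

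The mitochondrial ribosomal protein CDS were moderately and evenly occupied. Every one of the 71 was read in every library, from 39 reads for the least covered upward, and all passed the filter of the tests. Over the young-adult libraries the median member averaged 65.3 RPKM, and all 71 lay above the median of all CDS with a value, 2.45 RPKM. In the same libraries 9.66% of CDS with a value exceeded the median member. The means of 69 members lay within 2-fold of that median member. The 76 cytosolic ribosomal protein CDS stood far higher, with a median of 3608 ± 454 RPKM (SD over 4 libraries) against 63.1 ± 5.2 for the mitochondrial set. Together the 71 members took 0.350% to 0.403% of the reads of a young-adult library, and the cytosolic proteins 12.6% to 15.5%.

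Among large-subunit proteins, mrpl-12 was the most occupied in young adults. It encodes the L7/L12 stalk protein, which is present in several copies per ribosome and recruits translation factors. Its levels were 171 RPKM in the in-house gradient library, 144 in-house column, 210 kit gradient and 156 kit column. In the L4 libraries mrpl-12 had 167, 135, 132 and 151 RPKM, so the stages overlapped. The protein mrpl-10, the stalk base to which the L12 proteins bind, averaged 66.4 ± 6.4 RPKM (SD, n = 4). The next were mrpl-44, a protein with an RNase III-like fold, at 138 ± 2.7 RPKM, and mrpl-36, mrpl-53, mrpl-41 and mrpl-35, at 101, 100.4, 98.4 and 96.9 RPKM. The lowest were mrpl-32 at 37.2 ± 8.0, mrpl-37 at 38.5 ± 7.3 and mrpl-1, which forms the L1 stalk at the tRNA exit side, at 40.4 ± 3.9 RPKM.

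In the small subunit the highest means belonged to mrps-16 and mrps-21, both with bacterial counterparts, at 117 ± 17 and 105 ± 37.5 RPKM (SD, n = 4). The next were mrps-10 at 91.4, mrps-25 at 87.7, mrps-22 at 85.8 and mrps-14 at 84.3 RPKM, with SDs of 13.2 to 20.1. The lowest were mrps-9 at 41.4 ± 6.0, mrps-31 at 46.7 ± 7.1 and mrps-34 at 54.1 ± 6.0 RPKM. dap-3, the GTP-binding protein known in humans as death-associated protein 3, lay mid-list at 66.2 ± 10.9 RPKM. Neighbours in these orders differed by no more than the larger of their SDs, except mrpl-12 from mrpl-44, mrpl-44 from mrpl-36 and mrps-31 from mrps-34. The subunits had similar medians, although the ratio of the large-subunit to the small-subunit median was 0.862 to 0.965 in young adults and 1.08 to 1.18 in L4 libraries 5 to 7.

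**Figure D1:**
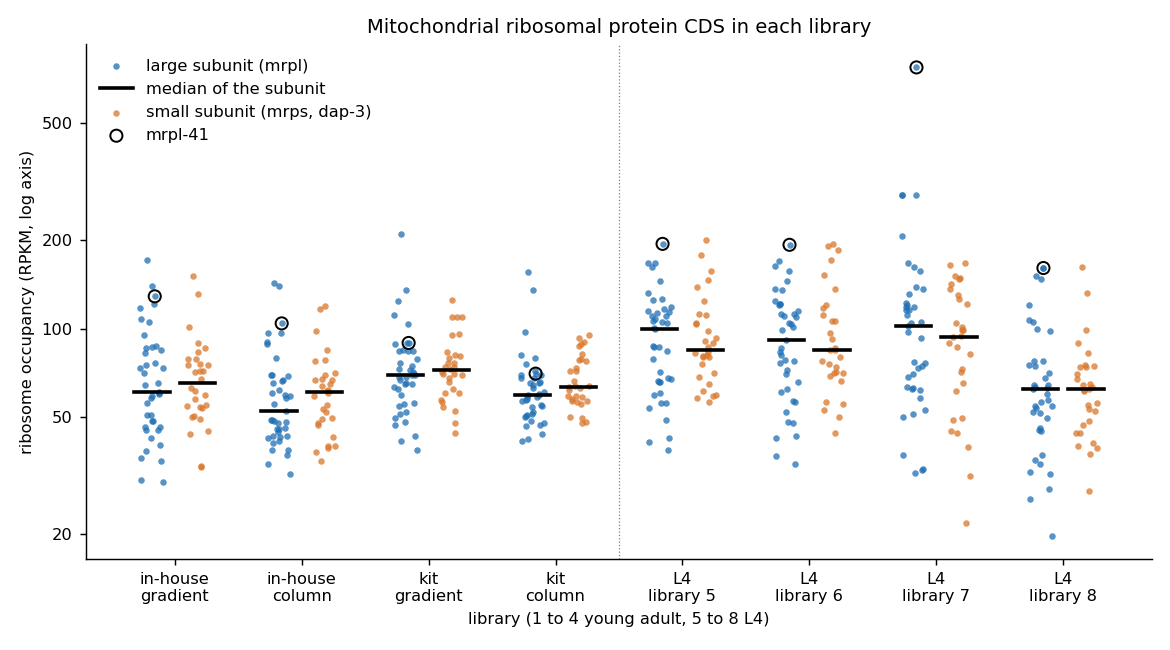
Ribosome occupancy (RPKM, log axis) of each of the 71 members in the 8 libraries, with large-subunit members in blue, small-subunit members in orange and the median of each subunit as a bar. The subunit medians lie between 52.5 and 72.2 RPKM in young adults and L4 library 8 and between 84.8 and 102 RPKM in L4 libraries 5 to 7, where mrpl-41 (circled) reaches 775 RPKM in library 7.

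The steadiest member across the young-adult methods was mrpl-44, with 140.3, 139.9, 135.3 and 135.5 RPKM, a highest-to-lowest ratio of 1.04. The median of that ratio over the 71 members was 1.44. It exceeded 2 for 5 members, mrps-12 at 2.402, mrps-21 at 2.27, mrps-18A at 2.15, mrpl-45 at 2.08 and mrpl-23 at 2.08. For all of these except mrpl-45 the libraries split by preparation, which is described below. mrpl-45, whose human homolog sits at the tunnel exit and binds the inner membrane, instead had 86.9 RPKM from the in-house gradient, 41.7 from the in-house column, and 65.2 and 62.9 from the kit gradient and column. Its in-house libraries were the highest and the lowest, and the fit called it for neither isolation nor preparation (adjusted p = 0.11 and 0.78, limma).

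The first comparison set the column against the gradient, to see whether they return the same occupancies. Mitochondrial ribosomal protein CDS were mostly lower on the column. In a limma fit on log2(RPKM + 1) with preparation as a second term, 37 of 71 members fell and 6 rose at a Benjamini-Hochberg adjusted p under 0.05 over all CDS. Over all 11569 CDS tested, 19.2% were called lower and 19.8% higher. As column minus gradient on the log2 scale, the median was -0.18 for the members and 0.02 for all CDS. The 41 large-subunit members gave 23 lower and 2 higher, and the 30 small-subunit members 14 lower and 4 higher. The fit has 1 residual degree of freedom per CDS and libraries of a single specimen number, so its p-values measure technical spread. On simulated data it made more false calls than its nominal share, so the calls for isolation and preparation are not held to that share.

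The largest fall among the called members was that of mrps-33, a small-subunit protein without a bacterial counterpart. Its gradient libraries held 79.3 (in-house) and 73.0 (kit) RPKM and its column libraries 53.5 and 56.4 RPKM, a log2 difference of -0.46 (SE 0.06, adjusted p = 0.005, limma). The column libraries lay below both gradient libraries. The large-subunit proteins mrpl-54 and mrpl-50 fell by as much, -0.46 each. mrps-18B and mrps-18.C, both named for bacterial protein S18, fell by 0.45 and 0.43 on the log2 scale, mrpl-11 of the stalk base by 0.42, and mrpl-55, mrpl-53, mrpl-35 and mrps-7 by 0.42, 0.41, 0.39 and 0.39. In each of these 10 members both column libraries were below the gradient library of the same preparation, a description of members chosen for the largest called falls.

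The members that rose were mrps-27, mrpl-38, mrpl-15, dap-3, mrps-30 and mrps-2. mrps-27, which belongs to the pentatricopeptide repeat proteins, went from 71.7 and 74.1 RPKM on the gradient to 84.7 and 88.7 on the column (log2 difference 0.25, SE 0.04, adjusted p = 0.009, limma). The gradient and column libraries of mrps-27 did not overlap. dap-3 rose in both pairs, from 54.1 to 61.3 RPKM in-house and from 70.0 to 79.2 RPKM with the kit (0.18, SE 0.04, adjusted p = 0.027), although its in-house column library stayed below its kit gradient library. With each library centred on its median CDS, mrps-27 alone of the 6 was still called higher, and 41 members were called lower, among them all 37. For all CDS the share called after centring is not given here. Without an abundance trend in the fit, 20 members were called lower and 0 higher, so all 6 rises lost their call (adjusted p = 0.096 for dap-3, limma).

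Shorter members fell more often. The recovered feature lengths of the members ran from 262 to 2876 bases with a median of 646, against 1004 bases for all CDS with a value. Among the 24 shortest members, up to 564 bases, 19 fell and 0 rose at the adjusted threshold, with a median log2 difference of -0.28. Among the 23 of middle length, from 571 to 826 bases, 15 fell and 1 rose, with a median of -0.21. Among the 24 longest, from 837 bases, 3 fell and 5 rose, with a median of -0.003. Calls by length were counted for the members alone, not for all CDS of those lengths. Across the 71 members the isolation difference and log2 length had a Pearson correlation of 0.59 (Spearman 0.60), and across all CDS tested 0.36, a description of points that share the same 4 libraries. With the trend on length over all CDS removed, the median of the members was -0.13, against -0.18 before. The steady mrpl-44 is also the longest member. The cytosolic ribosomal proteins, in the same fit, gave 67 of 76 lower and none higher (median -0.33), and none was higher at an unadjusted p under 0.05 or by voom.

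**Figure D2:**
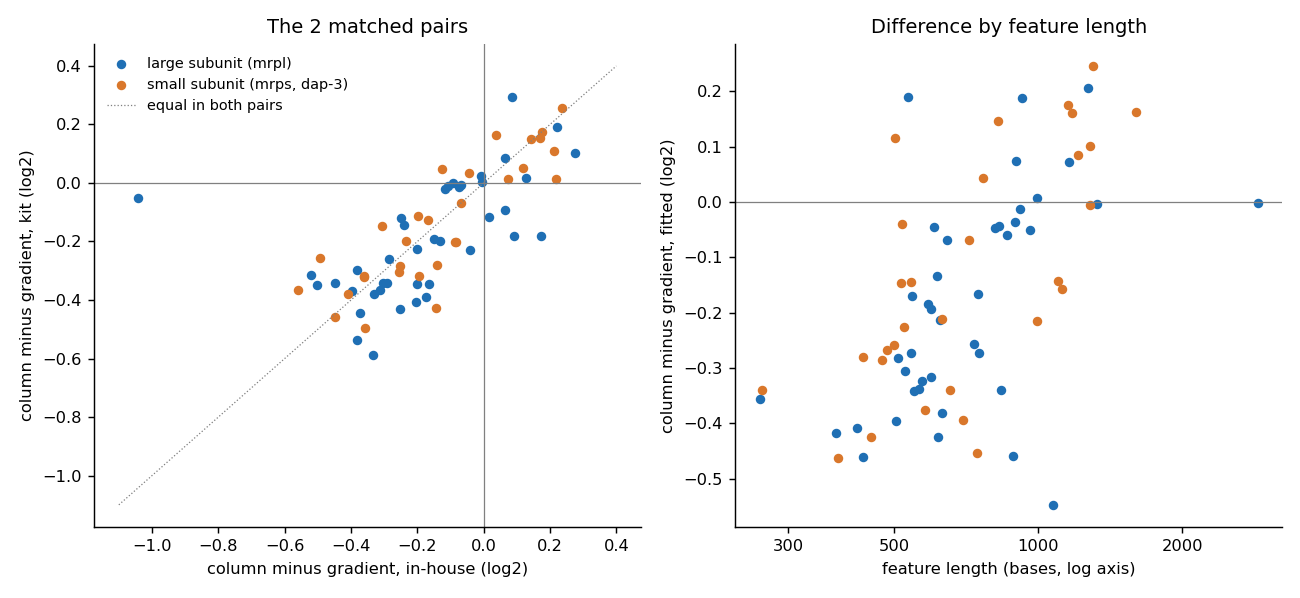
Left, log2 difference between column and gradient in the in-house pair (horizontal) and the kit pair (vertical) for the 71 members, where 48 lie below 0 in both pairs and 14 above 0 in both. Right, the fitted difference against feature length (bases, log axis): the 24 shortest members have a median of -0.28 and the 24 longest a median of -0.003.

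Library preparation moved single members further than isolation did, and in both directions. In the same fit, 35 of 71 members were higher with the kit and 13 lower. Over all CDS 25.9% were called higher and 10.0% lower. The median log2 difference (kit minus in-house) was 0.14 for the members and 0.10 for all CDS, and the SD over members was 0.36, against 0.20 for isolation. With libraries centred on their medians, 21 members were called higher and 19 lower, and these include all 13 that were lower before. The share of all CDS called after that centring is not given here. The 2 matched pairs gave the same sign for 64 of 71 members.

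Rises were led by mrps-12, a protein of the decoding centre. It had 34.1 and 39.9 RPKM in the in-house libraries (gradient, column) and 81.3 and 82.0 RPKM in the kit libraries, a log2 difference of 1.12 (SE 0.06, adjusted p = 7.4e-04, limma). Both kit libraries were more than 2-fold above both in-house libraries. mrpl-23, which lines the exit of the peptide tunnel, had 48.5 and 42.9 RPKM in-house against 89.5 and 68.1 with the kit (0.76, SE 0.06). mrps-18A followed with 0.71, mrps-23 with 0.66, mrpl-20 with 0.66, mrps-6 with 0.64, mrpl-9 with 0.64, mrps-14 with 0.53, mrpl-13 with 0.51 and mrps-25 with 0.47 on the log2 scale. In all 10 of these members the kit and in-house libraries did not overlap, and all 10 were still called higher with the libraries centred. As the 10 were chosen for the largest called rises, this is a description, and the share of all CDS without overlap was not counted.

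Falls were led by mrps-21. It had 151 and 117 RPKM in-house and 83.3 and 66.6 RPKM with the kit (log2 difference -0.83, SE 0.04, adjusted p = 6.6e-04, limma). mrpl-41 had 129 and 104 RPKM in-house and 89.6 and 70.5 RPKM with the kit (-0.54, SE 0.04, adjusted p = 0.001). For both genes, chosen for the largest called falls, every kit library lay below every in-house library. mrps-22 fell by 0.49, mrps-11 of the small-subunit platform by 0.49, mrpl-2, which lies next to the peptidyl transferase centre, by 0.40, mrps-28 by 0.40, mrpl-47 at the tunnel exit by 0.37, mrps-5 by 0.35, mrpl-40 by 0.30 and mrpl-15 by 0.30 on the log2 scale. dap-3 was higher with the kit (0.37, SE 0.04), and mrps-22, its next protein-coding neighbour in the annotation, was lower.

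**Figure D3:**
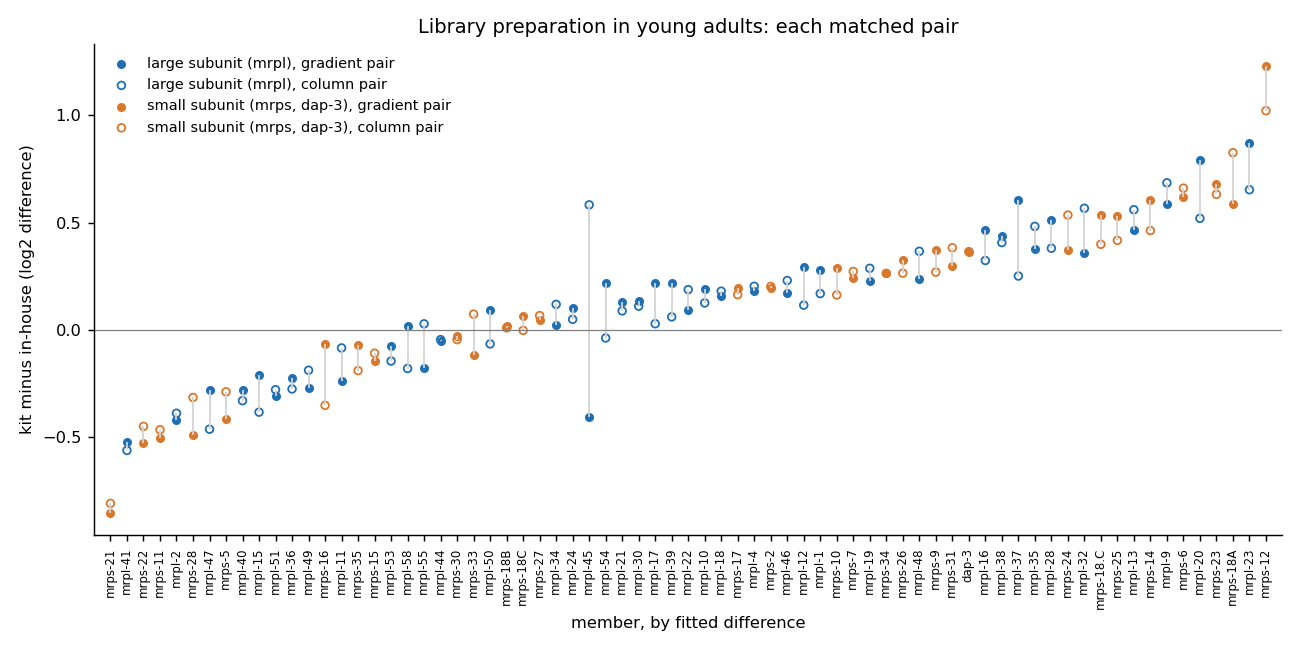
Log2 difference between kit and in-house libraries for each of the 71 members, ordered by the fitted difference, with the gradient pair as filled and the column pair as open points. The differences run from -0.83 for mrps-21 to 1.12 for mrps-12, and mrpl-45 has opposite signs in the 2 pairs.

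The L4 libraries resembled the in-house libraries more than the kit libraries in the relative levels of the members. Across the 71 members, log2 RPKM of L4 libraries 5 to 7 had Pearson correlations of 0.67 to 0.81 with the in-house libraries and of 0.30 to 0.54 with the kit libraries. L4 library 8 had 0.87 to 0.90 with in-house, 0.54 to 0.67 with the kit, and 0.77 to 0.81 with the other L4 libraries. For comparison, the in-house libraries had 0.90 with each other and 0.60 to 0.73 with the kit. Correlations over all CDS are not given here, so the likeness is not read as particular to the members. These values describe the same 71 features in pairs of single libraries. They are why the stage difference below is also given against each preparation of young adults.

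Young adults and L4 worms were compared next. The young-adult libraries share a single specimen number and differ in method, and the L4 libraries differ in gel slice. The p-values of the stage fits therefore measure the spread between such libraries. They are not read as measuring the spread between separate cultures. The stages were made as separate experiments, and the L4 libraries come without a stated isolation or preparation. Stage and experiment therefore cannot be told apart. In a whole-worm library, fewer cells of a type and less RNA per cell cannot be told apart either. With all 8 libraries as labelled, 14 of 71 members were lower in young adults and none higher, where 27.6% of all 13592 CDS were called lower and 11.1% higher. The median log2 difference (young adult minus L4) was -0.37 for the members and -0.26 for all CDS. The count of 0 higher stands beside 2 members higher at an unadjusted p under 0.05 and 0 by voom. The count of 14 fell to 0 to 3 when any one library other than L4 library 8 was left out, and it rose to 44 without L4 library 8. Beside mrpl-41 and mrpl-2, described below, the largest of these falls were those of mrps-33 (-0.89), mrpl-36 (-0.80), mrpl-55 (-0.80), mrpl-46 (-0.78), mrps-21 (-0.77), mrps-7 (-0.72), mrpl-48 (-0.72) and mrpl-40 (-0.72). All 14 were also called lower without L4 library 8.

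Without L4 library 8, members were higher in L4 worms. Of the 71, 44 were lower in young adults and none was higher, against 46.6% and 22.7% of all 13494 CDS tested. The unadjusted count was 45 lower and 2 higher, against 6496 and 3206 of all 13494 CDS, and voom called 45 and 0 members. The median log2 difference was -0.52 for the members and -0.34 for all CDS, so the members lay 0.19 below the general shift. With libraries centred on their medians, 15 members were called lower, all of them among the 44, and 11 were called higher, with a median of -0.12. The share of all CDS called after centring is not given here, so this split has no background beside it. The members called lower were 26 of 41 in the large and 18 of 30 in the small subunit. In 38 members all 4 young-adult libraries lay below all 3 L4 libraries, and in none above. The share of all CDS without overlap was not counted, so the 38 are not read as particular to the members.

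In summed terms the members took 0.376% ± 0.022 of reads in young adults (SD, n = 4) and 0.541% ± 0.045 in L4 libraries 5 to 7 (n = 3), with no overlap between 0.350% to 0.403% and 0.514% to 0.593%. L4 library 8, at 0.368%, lay among the young adults. The cytosolic ribosomal proteins went the other way in the same fit, with 53 of 76 higher and 3 lower in young adults and a median log2 difference of 0.68. With all 8 libraries 26 were higher and 2 lower. The ratio of the cytosolic to the mitochondrial median was accordingly 57.1 ± 4.9 in young adults and 24.6 ± 3.2 in L4 libraries 5 to 7, and 59.4 in L4 library 8. The 3 most occupied cytosolic CDS, rps-29, rpl-36 and rps-23, were called in neither fit. Their log2 differences were 0.007, 0.14 and 0.41 without library 8 (adjusted p = 0.98, 0.50 and 0.073, limma). With all 8 libraries they were -0.26, -0.07 and 0.19.

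Large-subunit members with the widest stage difference included mrpl-41, described below, mrpl-15 and mrpl-2. mrpl-2 had 55.9, 55.5, 41.5 and 42.2 RPKM in young adults and 108, 112 and 102 RPKM in L4 libraries 5 to 7, with 54.6 RPKM in L4 library 8. Its log2 difference was -1.13 (SE 0.15, adjusted p = 6.9e-05, limma), or -0.89 (SE 0.25, adjusted p = 0.028) with library 8 in. The young adults and L4 libraries 5 to 7 did not overlap, and library 8 lay inside the young-adult range. mrpl-55 fell by 1.02 on the log2 scale, mrpl-17 by 0.96, mrpl-19, at the interface between the subunits, by 0.93 and mrpl-48 by 0.91. With library 8 in, mrpl-17 was at -0.71 and not called (adjusted p = 0.060). mrpl-15, a core protein of the large subunit, averaged 73.4 ± 11.2 RPKM in young adults against 132, 136 and 287 RPKM in L4 libraries 5 to 7 (-1.23, SE 0.26, adjusted p = 0.002). Nor was mrpl-15 called with library 8 in (-0.94, adjusted p = 0.064).

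In the small subunit the widest differences were those of mrps-28, mrps-33 and mrps-14. mrps-28 had 67.7, 62.0, 48.0 and 49.6 RPKM in young adults, 147, 137 and 99.4 RPKM in L4 libraries 5 to 7, and 48.6 RPKM in L4 library 8 (-1.15, SE 0.18, adjusted p = 2.4e-04, limma). mrps-14 averaged 84.3 ± 20.1 RPKM in young adults and 170 ± 14 RPKM in L4 libraries 5 to 7 (-1.03, SE 0.18), and mrps-33 averaged 65.5 ± 12.6 and 142 ± 25.5 RPKM (-1.11, SE 0.18). The young-adult libraries of all 3 lay below those of L4 libraries 5 to 7, a description of members chosen for a wide difference. With library 8 in, mrps-33 was still called (-0.89, adjusted p = 0.031), whereas mrps-28 (-0.81, adjusted p = 0.081) and mrps-14 (-0.68, adjusted p = 0.14) were not. dap-3 had 87.0, 86.4 and 101 RPKM in L4 libraries 5 to 7, above its 54.1 to 79.2 RPKM in young adults (-0.47, SE 0.15, adjusted p = 0.019), and 53.5 RPKM in library 8, with which it was not called (-0.28, adjusted p = 0.31). mrps-5, the gene of the lifespan studies, averaged 68.3 ± 10.1 and 129 ± 31.5 RPKM (-0.89, SE 0.18, adjusted p = 0.001), and with library 8 in it was not called (-0.67, adjusted p = 0.068).

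Of the 27 members that were not called, the one with the most positive difference was mrps-23 with 0.75 (SE 0.33, adjusted p = 0.063, limma), from 70.8 ± 20.5 RPKM in young adults to 43.7 ± 19.5 in L4 libraries 5 to 7. mrpl-12 and mrpl-10 of the stalk had 0.23 and 0.19, mrpl-23 had 0.42 and mrpl-13 had 0.38. mrpl-44 was nearly level, at 138 ± 2.7 RPKM in young adults and 151 ± 10.1 in L4 libraries 5 to 7 (-0.13, SE 0.11, adjusted p = 0.32), although its young-adult libraries all lay below those 3. With libraries centred, the 11 members called higher were mrpl-1, mrpl-10, mrpl-12, mrpl-13, mrpl-23, mrpl-28, mrpl-38, mrpl-45, mrps-2, mrps-23 and mrps-25.

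The preparation of the young adults changed part of this result. Against the in-house libraries alone, 39 members were lower and none higher, where 45.2% of all CDS were lower and 18.1% higher. Against the kit libraries alone 34 were lower and 5 higher, where 41.4% of all CDS were lower and 22.2% higher. The 47.9% of members lower against the kit is near the share of all CDS. The sign of the stage difference was opposite against the 2 preparations for 10 members. For mrps-12 it was -0.43 against in-house and 0.70 against the kit, and for mrps-23 it was 0.43 and 1.08. mrps-21 had -0.38 against in-house and -1.20 against the kit. For mrpl-2 the difference was -0.93 and -1.34, and for mrps-14 -1.30 and -0.76, lower in young adults either way.

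Stage markers moved with these results. The summed germ line markers were 1518 to 1704 RPKM in young adults, 602 to 648 in L4 libraries 5 to 7 and 1270 in L4 library 8, with puf-5 at 0 in library 7, and in the fit without library 8, 5 of the 7 were higher in young adults and 1 lower. The 3 muscle markers summed to 690 to 1042, 1931 to 1948 and 1043 RPKM. The 3 intestine markers summed to 1963 to 3128, 3216 to 3664 and 2430 RPKM, and the 3 nervous system markers to 146 to 206, 287 to 306 and 230 RPKM. Of the intestine sum, 1 gene gave 2835 of 2866 RPKM in the in-house gradient library. Without library 8 all 3 intestine markers were called lower in young adults, and with all 8 libraries 0 were called. The sperm markers overlapped, at 1229 to 1789 and 1178 to 1563 RPKM, and were 755 RPKM in library 8, with msp-113 at 0 throughout and 5 other msp genes at 0 in some libraries. The part of tissue proportions in the stage difference was not tested.

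**Figure D4:**
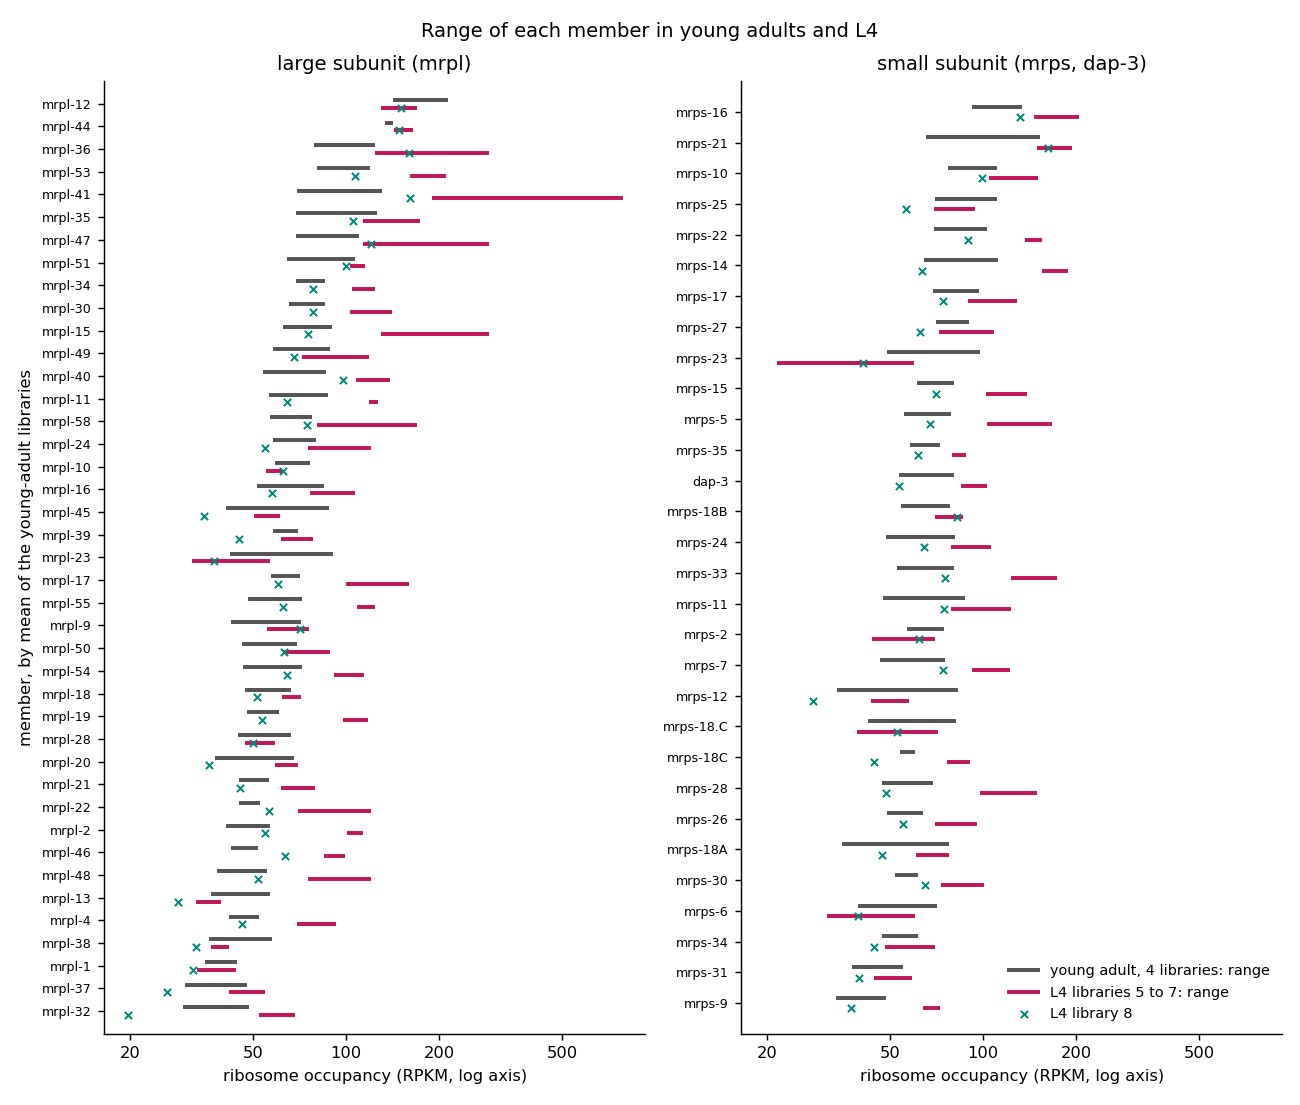
Range of ribosome occupancy (RPKM, log axis) of each member over the 4 young-adult libraries (grey) and L4 libraries 5 to 7 (magenta), with L4 library 8 as a cross. In 38 of 71 members the grey bar ends below the start of the magenta bar, and library 8 lies within the grey bar for 39 members and within the magenta bar for 13. These counts were not made for all CDS.

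Within L4 libraries 5 to 7 there is 1 library per gel slice and no test, so values are given side by side. Libraries 5 and 6 were close: no member differed by more than 2-fold, and of all 7030 CDS with at least 10 RPKM in either library 0.0996% did. Library 7 stood apart. Against library 5, 5 of 71 members were past 2-fold, where 3.22% of all CDS were, and against library 6, 5 of 71, where 3.16% were. The members are mrpl-41, mrpl-15, mrpl-47 and mrps-23 with mrpl-36 against library 5 and mrpl-58 against library 6. The SD of the log2 difference over members was 0.16 between libraries 5 and 6 and 0.53 between libraries 5 and 7. Library 7 is also the shallowest of the 3, and the intervals that follow cover counting error only.

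mrpl-41, a large-subunit protein with no counterpart in bacterial ribosomes, differed most. It had 195 RPKM in L4 library 5 (2899 reads, exact Poisson 95% interval 188 to 202), 193 RPKM in library 6 (2407 reads, 186 to 201), 775 RPKM in library 7 (2213 reads, 743 to 808) and 161 RPKM in library 8 (339 reads, 144 to 179). Library 7 was 3.98-fold above library 5 and 4.01-fold above library 6, whose intervals overlap each other. Of 7320 CDS with at least 10 RPKM in one of the 3 libraries, 2 rose more from the mean of libraries 5 and 6 to library 7. As mrpl-41 was named beforehand for differing among these libraries, its place is a description. In young adults mrpl-41 had 70.5 to 129 RPKM, below every L4 library, library 8 included.

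The stage difference of mrpl-41 rests in part on library 7. Without L4 library 8 its log2 difference was -1.67 (SE 0.44, adjusted p = 0.006, limma), and without library 7 as well it was -1.01 (SE 0.22, adjusted p = 0.003). With all 8 libraries it was -1.44 (adjusted p = 0.044). Against in-house young adults alone it was -1.40 with an adjusted p of 0.059, and against kit libraries alone -1.94 with 0.016. All of these are negative. The stage difference of mrpl-47 shrank from -0.82 (adjusted p = 0.029) to -0.41 (adjusted p = 0.065) without library 7, and that of mrpl-36 from -0.83 to -0.49 (adjusted p = 0.037). With all 8 libraries mrpl-47 was not called (-0.72, adjusted p = 0.084).

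The other members past 2-fold also rose in library 7, except mrps-23. mrpl-15 had 132, 136 and 287 RPKM in L4 libraries 5, 6 and 7, mrpl-47 had 115, 124 and 286 RPKM, and mrpl-36, the shortest member, 126, 157 and 286 RPKM. The intervals of library 7 lay clear of those of libraries 5 and 6 in each case. These members were chosen for their difference in library 7, so this is a description. mrpl-58, whose human homolog releases peptides from stalled ribosomes, had 101, 81.7 and 167 RPKM. mrps-23 fell, with 59.1, 50.2 and 21.9 RPKM, the last from 47 reads (95% interval 16.1 to 29.1), and had 41.02 RPKM in library 8. mrpl-41, mrpl-47, mrpl-36 and mrpl-15 were also lower with the kit than in-house in young adults, and mrps-23 was higher. The members with the largest kit fall and rise did not share this pattern. From the mean of libraries 5 and 6 to library 7, mrps-21 (kit difference -0.83) changed by -0.28 and mrps-12 (1.12) by -0.005. The import gene tin-9.1, higher with the kit, had 161, 243 and 686 RPKM in L4 libraries 5, 6 and 7. mrpl-58 had a preparation difference of -0.08 (adjusted p = 0.34, limma), with opposite signs in the gradient and column pairs. Over all 71 members the kit difference and the change to library 7 had a Pearson correlation of -0.35, and over 4686 CDS with at least 10 RPKM in every library -0.11, both given as descriptions.

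**Figure D5:**
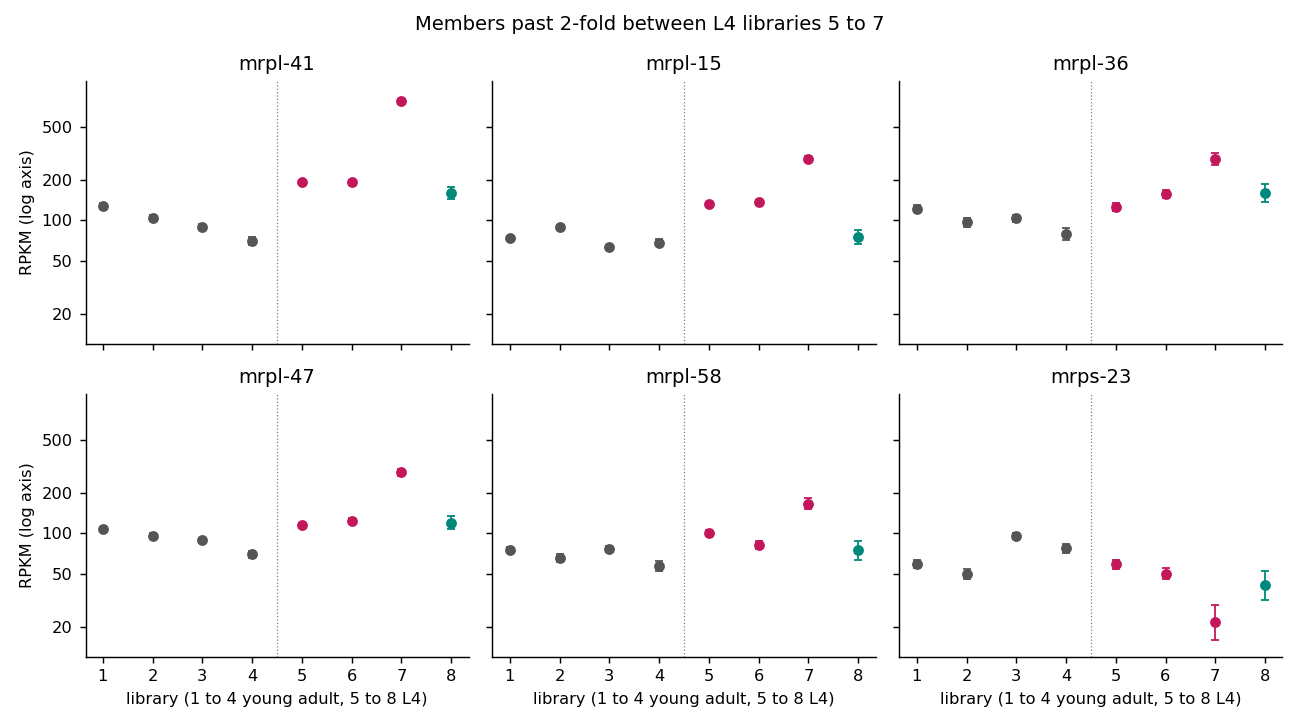
RPKM (log axis) of the 6 members past 2-fold between L4 libraries 5 to 7, in young adults (grey), L4 libraries 5 to 7 (magenta) and L4 library 8 (green), with exact Poisson 95% intervals where they exceed the point. mrpl-41 goes from 195 and 193 RPKM in libraries 5 and 6 to 775 RPKM in library 7, and mrps-23 from 59.1 and 50.2 to 21.9 RPKM.

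The profiles most like that of mrpl-41 over the 8 libraries, by root mean square distance of centred log2(RPKM + 1) among 6705 CDS with a mean of at least 10 RPKM, belonged to arx-7, znf-706, tpan-1, coq-3 and T24C2.5, at distances of 0.26 to 0.34. None is a mitochondrial ribosomal protein. arx-7, a subunit of the Arp2/3 actin nucleator, had 175, 197 and 507 RPKM in L4 libraries 5 to 7, znf-706 had 379, 442 and 1495 RPKM, and coq-3, an enzyme of ubiquinone synthesis, 53.2, 57.6 and 124 RPKM. The likeness that chose these genes covers all 8 libraries. Their high value in library 7 and their lower values in young adults follow from that choice and are descriptions. The young-adult values were 61.4 to 145 RPKM for arx-7 and 23.3 to 29.1 RPKM for coq-3, below libraries 5 to 7 in both.

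Other nuclear-encoded mitochondrial genes came from lists taken by name. Without L4 library 8, most translation factors, oxidative phosphorylation subunits, import components, and chaperones and proteases were lower in young adults. Aminoacyl-tRNA synthetases gave 4 of 10 lower, near the 46.6% of all CDS. The genes for mitochondrial DNA and RNA maintenance gave 2 of 7, too few genes to set apart from that share. Translation factors, which work on the mitochondrial ribosome, gave 5 of 6 lower and none higher, where 46.6% and 22.7% of all CDS were called. At an unadjusted p under 0.05 and by voom the count higher was also 0 for translation factors, aminoacyl-tRNA synthetases, import components, and chaperones and proteases. With all 8 libraries, where 27.6% of all CDS were lower, 3 of 6 translation factors, 1 of 10 synthetases, 4 of 13 import components, 1 of 7 chaperones and proteases and 19 of 41 subunits of oxidative phosphorylation were lower. The elongation factor gene tsfm-1 had 53.7 to 85.9 RPKM in young adults and 246 to 284 in L4 libraries 5 to 7 (log2 difference -1.97, SE 0.17, adjusted p = 3.0e-06, limma), beside -1.67 for mrpl-41, and was also called with all 8 libraries (-1.62, adjusted p = 0.017). tufm-1, the mitochondrial EF-Tu, averaged 257 ± 31 and 422 ± 105 RPKM (-0.69, SE 0.18, adjusted p = 0.005), and gfm-1, the mitochondrial EF-G, 55.8 ± 11.4 and 75.2 ± 4.7 RPKM (-0.44, SE 0.17, adjusted p = 0.037). All 3 were higher in each of L4 libraries 5 to 7 than the mean of young adults. With library 8 in, tufm-1 (adjusted p = 0.24) and gfm-1 (adjusted p = 0.21) were not called.

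Aminoacyl-tRNA synthetases gave 4 of 10 lower and none higher, a share of 40% lower against 46.6% of all CDS. Their median log2 difference was -0.24, against -0.34 for all CDS. In young adults sars-2, fars-2 and pars-2 averaged 36.3 ± 1.6, 36.2 ± 3.7 and 16.3 ± 1.8 RPKM. In L4 libraries 5 to 7 they averaged 42.7 ± 11.8, 42.2 ± 0.9 and 22.7 ± 5.2 RPKM. Of these only pars-2 passed the threshold (-0.44, adjusted p = 0.036, limma), and it did not with library 8 in (adjusted p = 0.12). Genes that maintain mitochondrial DNA and RNA were split, with 2 of 7 lower and 2 higher, or 0 lower and 2 higher with all 8 libraries (1 lower at an unadjusted p under 0.05 and by voom). Without library 8 these genes were 28.6% lower, with a median log2 difference of 0.02. The packaging protein hmg-5 was higher in young adults, 91.7 to 113 RPKM against 44.5 to 56.3 (0.96, SE 0.14, adjusted p = 1.6e-04), and mtss-1, which binds single-stranded mitochondrial DNA, was lower, 166 to 218 against 296 to 310 RPKM (-0.64, SE 0.13, adjusted p = 0.002). Once library 8 was included, hmg-5 was still called (adjusted p = 0.040) and mtss-1 was not (adjusted p = 0.24). atad-3 averaged 154 RPKM in both groups.

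In the fit without library 8, 46.6% of all CDS were lower and 22.7% higher. There the nuclear-encoded subunits of oxidative phosphorylation gave 28 of 41 lower and 2 higher, with a median of -0.58. atp-2 of the ATP synthase averaged 2007 ± 145 and 2953 ± 164 RPKM (-0.56, SE 0.13, adjusted p = 0.003, limma), cox-6B of complex IV 1668 ± 302 and 2444 ± 286 RPKM (-0.56, adjusted p = 0.014), and atp-1 2262 ± 170 and 2653 ± 221 RPKM, a difference that did not pass (adjusted p = 0.15). When library 8 was included, cox-6B was still called (adjusted p = 0.029) and atp-2 was not (adjusted p = 0.14). Import components gave 9 of 13 lower, with ddp-1 at 327 ± 74 and 697 ± 258 RPKM (-1.04, adjusted p = 0.007, or 0.052 with library 8 in). The import genes tin-9.1 and tomm-7 were higher with the kit by 1.29 and 0.98 on the log2 scale, as mrps-12 was. Chaperones and proteases gave 5 of 7 lower, led by hsp-6, at 584 ± 50 and 1274 ± 3.0 RPKM (-1.13, SE 0.13, adjusted p = 2.1e-05), hsp-60, at 873 ± 60 and 1533 ± 54 RPKM (-0.81), and phb-2, at 466 ± 53 and 765 ± 193 RPKM (-0.69). With library 8 in, hsp-6 was still called (adjusted p = 0.023), whereas hsp-60 (adjusted p = 0.095) and phb-2 (adjusted p = 0.18) were not.

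In the isolation comparison, with 19.8% of all CDS higher and 19.2% lower on the column, 37 of 71 ribosomal members fell. The aminoacyl-tRNA synthetases gave 6 of 10 higher and none lower, the chaperones and proteases 5 of 7 higher and none lower, and the translation factors 3 of 6 higher and 1 lower, among them gfm-1 (0.49, SE 0.04, adjusted p = 0.004, limma) and tufm-1 (0.30, SE 0.04). At an unadjusted p under 0.05, and by voom as well, the synthetases gave 7 higher and 0 lower, and the chaperones and proteases 6 higher and 1 lower. Oxidative phosphorylation subunits gave 19 of 41 lower and 7 higher, import components 7 of 13 lower and 1 higher, and the genes for mitochondrial DNA and RNA maintenance 4 of 6 lower and 1 higher. No test of the difference between lists was made. The isolation difference also followed feature length over all CDS. The lengths of the other lists are not given here, and the length trend was removed for the members alone.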

How the data were processed

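The deposited table holds RPKM per CDS for 8 libraries, made by the authors from reads mapped with tools that, per the submitters' processing notes, include bcl2fastq 1.8.4, Bowtie2 2.2.4 and STAR 2.4; their roles, the build and the treatment of multiply mapping reads are not given in the sources used here. Library totals, feature lengths and whole reads were recovered from the RPKM steps for all 19649 CDS with a value (tolerance 0.0001), and 856 CDS were at 0. Of 20505 sequence names, 20051 matched a locus tag. No coordinates or sequences are given. Fits used limma 3.58.1 in R 4.3.3 (lmFit, eBayes with an abundance trend, two-sided) on log2(RPKM + 1) for CDS with at least 1 RPKM in 2 libraries, adjusted over all CDS tested. Differences are on that scale. They were tested on simulated data, where the crossed fits of isolation and preparation made more false calls than their nominal share. Tables and figures were made with Python 3.11.15, pandas 2.3.3, numpy 2.4.6, scipy 1.17.1 and matplotlib 3.10.9. Members and lists were chosen with earlier results of these data known. Named members were the 10 largest called rises and falls per comparison with at least 10 RPKM, the 6 highest and 3 lowest per subunit in young adults, members past 2-fold in L4 libraries 5 to 7, mrpl-41, dap-3, the 5 profiles most like mrpl-41, and the 3 most occupied CDS of each other list. mrpl-10, mrpl-45, mrps-5 and the members named as not called were chosen after their values were seen. Alternatives were pseudocounts of 0.1 and 5, no filter or 10 RPKM, median centring, no abundance trend, voom on recovered reads, removal of a length trend, each library left out, and, chosen after seeing the data, each young-adult preparation alone.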

Additional observations from a re-analysis of the deposited data

Results flagged for a closer look

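Among 148 groups of 4 libraries (71 members and 3 medians in each stage), 10 had a sample far from the other 3, where chance flags about 1 in 20. In L4, library 8 was low for 5 members. mrpl-11 had 64.3 RPKM there against at least 120 in the other L4 libraries, mrpl-2 had 54.6 against at least 102, mrpl-55 had 62.5 against at least 110, mrps-14 had 63.5 against at least 157, and mrps-9 had 37.5 against at least 65.1 RPKM.

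In L4 library 7, 3 members were high. mrpl-41 had 775 RPKM against at most 195 in the other L4 libraries, mrpl-47 had 286 against at most 124, and mrpl-44 had 163 against at most 148 RPKM. In the same library mrps-18B was low, at 71.2 RPKM against at least 82.7 in the others. In young adults, mrpl-17 was high in the kit gradient library, at 69.9 RPKM against at most 59.9.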

How the results depend on the processing

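No median of the members, and no called difference of a named member, changed sign under any alternative tried. Named genes outside the members were not put through most of these alternatives. Pseudocounts and a filter at 10 RPKM kept every count of called members within 1.5 times. Removing the length trend moved the median to -0.13 for isolation, 0.044 for preparation, -0.055 for stage with all 8 libraries and -0.14 without L4 library 8. Median centring gave medians of -0.24, 0.025, -0.036 and -0.12 in that order, with 1 member higher for isolation, 21 higher for preparation, 9 higher and 1 lower for stage with all 8, and 11 higher and 15 lower without library 8. Without an abundance trend isolation gave 0 higher and 20 lower, and preparation 21 higher. Stage with all 8 gave 8 lower with no filter and 27 with voom. Leaving out 1 library gave 0 to 44 lower for stage with all 8. Without library 8 it gave 0 to 2 higher and 36 to 44 lower. The preparation median ran from 0.13 to 0.18. Kit young adults alone gave 5 higher. Counts of called members under the alternatives stand without the share of all CDS. The causes were not tested. Leaving out a young-adult library leaves isolation and preparation with no residual degree of freedom, so those are differences with no test. No paired analysis was possible because the L4 columns carry no replicate number. Depth limits the values of L4 libraries 7 and 8, where mrps-23 had 47 reads (library 7) and mrpl-32 had 39 (library 8).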
